A study of Mus musculus with 15 samples.

Results

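The genes of serine synthesis, folate one-carbon metabolism and the ATF4 stress response were followed in microglia sorted from the cortex of PS2APP and non-transgenic (non-Tg) mice. The set was a fixed list of 38 genes, all of which were found among the 36528 NCBI Gene IDs of the count tables, 1 of them (Mars, now Mars1) through its synonym. It held 3 serine synthesis enzymes, 6 folate one-carbon enzymes, 6 enzymes of other amino acids, 11 genes around ATF4 and 12 aminoacyl-tRNA synthetases. Of the 38 genes, 31 passed the count filter and were tested among 13994 genes, and 7 had too few reads (Asns, Cbs, Cth, Pycr1, Chac1, Stc2 and Trib3). The question was whether Psat1, a serine synthesis enzyme known from earlier results on these samples to be higher in PS2APP, rose alone or with its pathway.

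PS2APP mice carry human transgenes for mutant presenilin 2 and mutant amyloid precursor protein and deposit amyloid plaques in the brain. The 9 PS2APP samples came from mice of 14 months (n = 4) and 15 months (n = 5), and the 6 non-Tg samples, which are wild type for these transgenes, from mice of 14 months (n = 2) and 15 months (n = 4). All 15 samples were total RNA of cortical cells sorted for green fluorescent protein under Cx3cr1, a receptor gene that microglia use at high level, so the reporter was shared by both groups. The sources used here do not give the promoters of the transgenes, the state of the reporter allele or whether a sample was 1 mouse or a pool. The p-values therefore rest on the spread between the deposited samples, part of which may be technical.

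Cells make serine from a glycolytic intermediate in a chain of steps catalysed by Phgdh, Psat1 and Psph. Serine then gives its side-chain carbon to folate through the Shmt enzymes, and the Mthfd enzymes pass that carbon on for nucleotide and methyl group synthesis. When amino acids run short or proteins misfold, kinases phosphorylate the translation factor eIF2, the mRNA of the transcription factor ATF4 is translated, and ATF4 raises many of these enzymes, the tRNA synthetases and stress regulators such as Ddit3 and Trib3. In the brain astrocytes are known for high serine synthesis.

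ATF4 binds as a dimer with C/EBP proteins to a composite site whose core, TGATGNAA, was searched on both strands (as TTNCATCA on the other) in the RefSeq promoters of the GRCm38.p6 assembly, each running from 250 bases before to 50 after a gene's start. The promoter table held 31 of the 38 genes with 33 promoters, and no promoter for Aldh1l2, Cars, Cth, Eif4ebp1, Lars, Nars and Wars. A match was present in 10 of these 31 genes (32.3%) and in 1219 of all 27025 genes (4.51%). The list was written partly from known ATF4 targets, so this share describes how it was chosen. In 7 genes the first match lay before the start. That of Aars, which starts 112 bases before it, is not printed. The other 6 sites are shown because they let the genes with a match be set beside their expression. Each is written 5′ to 3′ in the direction of the gene, with the match in capitals.
Asns: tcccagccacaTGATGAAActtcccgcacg
Pycr1: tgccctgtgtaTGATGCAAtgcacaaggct
Chac1: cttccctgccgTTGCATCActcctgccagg
Nupr1: aaagggccagaTTGCATCAgacagggcttg
Tars: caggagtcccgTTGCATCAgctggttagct
Gars: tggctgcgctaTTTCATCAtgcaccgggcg
The Asns site (chr6:7693214-7693243, minus strand) starts its match 23 bases before the gene's start, and the Chac1 site (chr2:119351038-119351067, plus strand) 193 bases before it. Those of Pycr1 (chr11:120643833-120643862, minus strand) and Nupr1 (chr7:126625562-126625591, minus strand) start 103 and 110 bases before. The Tars match (chr15:11399655-11399684, minus strand) starts 15 bases and the Gars match (chr6:55037960-55037989, plus strand) 30 bases before the start. Iars, Trib3 and Yars held a match only after the start.

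No match was found in the promoters of Phgdh and Psph or in either promoter of Psat1, and the 250 bases before the outer start of Psat1 (chr19:15925060-15925309, minus strand) are shown because Psat1 is the gene of the set that changed.
Psat1: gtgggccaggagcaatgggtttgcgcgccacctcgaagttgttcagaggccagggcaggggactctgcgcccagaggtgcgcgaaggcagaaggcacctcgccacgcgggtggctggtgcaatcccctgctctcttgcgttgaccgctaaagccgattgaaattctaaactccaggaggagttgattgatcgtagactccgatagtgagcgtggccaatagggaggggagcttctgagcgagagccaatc
The search covers these letters in this window only. Of the 10 genes with a match 4 (Asns, Pycr1, Chac1 and Trib3) were below the count filter, and none of the others was called between the groups.

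Libraries held 3664742 to 8455237 counted reads (median 5867848). All 12 microglia markers were read in every sample, with a summed level of 34437 to 44957 CPM (reads scaled to library size with TMM factors) in non-Tg and 27817 to 40466 in PS2APP. A set of 4 libraries stood apart in 10 immediate early genes such as Fos and Egr1, namely PS2APP samples 1 and 4 and non-Tg samples 9 and 13. A set of 3 (PS2APP sample 14, non-Tg samples 12 and 13) was low in Xist. The neuron marker sum was 61.8 to 224 CPM in PS2APP and 233 to 446 in non-Tg, with no overlap, and 2 of its 8 tested genes (Gad2 and Slc17a7) fell. The astrocyte sum was 324 to 637 CPM in PS2APP and 474 to 1125 in non-Tg, where Gfap rose and Slc1a2 fell. In sorted bulk samples fewer cells of a type and less RNA per cell cannot be told apart. T cell markers were at 0 to 6.34 CPM in sum, and the ranges of oligodendrocyte, endothelial and border macrophage sums overlapped between the groups. Within the endothelial list Flt1 rose, from a mean of 5.42 to 24.4 CPM (edgeR adjusted p = 0.0220), and Pecam1 fell, from 36.0 to 15.9 CPM (edgeR adjusted p = 0.0107). The part of these markers in the results was not tested, other than with the astrocyte and neuron scores. Of the 38 genes 17 overlap another annotated gene, whose reads could not be told apart if strand was not used in counting.

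Psat1, phosphoserine aminotransferase, was the 1 gene of the set that rose in PS2APP microglia, and 0 fell (edgeR quasi-likelihood test, Benjamini-Hochberg adjusted p under 0.05). Of all genes tested 1.18% were called in either direction and 0.958% as higher, and the 1 call describes Psat1, not the set. The other 30 tested genes lay on both sides of 0, with 13 positive and 17 negative log2 fold changes between -0.70 and 0.82. The median over the 31 genes was -0.05, beside -0.02 over all genes tested. The adjusted p of the other 30 ran from 0.428 to 0.992, and none of the 30 had an unadjusted p under 0.05 (smallest 0.0509). Among all 13994 genes tested 1635 had an unadjusted p under 0.05 in the same edgeR test.

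Psat1 (Gene ID 107272, chromosome 19, 15905123 to 15925059, GRCm38) stood at 19.4, 26.5, 33.0, 38.4, 41.6 and 49.0 CPM in the 6 non-Tg samples. In the 9 PS2APP samples it stood at 71.8, 73.8, 77.9, 83.9, 91.4, 100.2, 103, 113 and 143 CPM, from 337 to 763 reads each. The lowest PS2APP sample lay above the highest non-Tg sample, and groups without overlap, in either direction, were found in 0.636% of all genes tested. The means were 34.7 ± 10.7 CPM (SD, n = 6) and 95.3 ± 22.6 (SD, n = 9), which is 1.45 ± 0.21 (SE) in log2 or 2.74-fold (edgeR adjusted p = 0.000272). Among the 134 genes called higher Psat1 ranked 28 by p and 92 by fold change, and no annotated gene overlaps it. Its rise is the starting point of the question and is not independent support for it.

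Psat1 was called whichever of the 15 samples was left out (15 of 15 fits), with log2 fold changes of 1.33 to 1.55, and in 14 of 16 other alternatives. It was 1.47 (edgeR adjusted p = 0.00500) once the 4 libraries high in immediate early genes were omitted and 1.33 (0.0105) without the 3 low in Xist. With the astrocyte score of each sample, the mean log2 CPM of the markers, as a covariate it was 1.44 (0.000331). With the neuron score as a covariate it was 1.05 ± 0.31 and not called (adjusted p = 0.707), in a fit that called 19 genes in all, and since that score moves with genotype, its part in the rise cannot be told apart from genotype here. At 15 months alone Psat1 was called at 1.63 (edgeR adjusted p = 0.00610), and at 14 months alone, with 4 against 2 samples, it was 1.20 and not called (0.185). The interaction of genotype and age was 0.47 ± 0.40 for Psat1 (edgeR unadjusted p = 0.257, adjusted p = 0.803).

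The enzymes on either side of Psat1 in the chain did not pass the test. Phgdh, phosphoglycerate dehydrogenase, which makes the substrate of Psat1 (chromosome 3, 98313171 to 98339969), stood at 4.16, 5.68, 6.63, 7.40, 7.75 and 8.01 CPM in non-Tg. In PS2APP it stood at 4.08, 4.31, 5.53, 5.98, 6.13, 7.10, 7.68, 7.87 and 8.49 CPM. These values cover the same range in both groups, and the log2 fold change was -0.02 ± 0.34 (edgeR adjusted p = 0.992) with a 95% interval of -0.72 to 0.68.

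Psph, the phosphatase that releases serine (chromosome 5, 129765558 to 129787443), stood at 3.60, 3.72, 4.49, 7.69, 9.04 and 15.7 CPM in non-Tg. Its 9 PS2APP values were 1.91, 5.67, 6.64, 7.97, 8.49, 8.80, 9.15, 9.77 and 12.3 CPM, of which the lowest lies below the non-Tg range and the others inside it. The log2 fold change was 0.12 ± 0.43 (edgeR adjusted p = 0.959), and its interval of -0.78 to 1.02 still allows a rise of 2-fold. It was -0.10 without non-Tg sample 5 and 0.44 without non-Tg sample 11. Psph overlaps Cct6a, and the sources used here do not give the strandedness of the counting. Within the ages Psph was 1.22 (unadjusted p = 0.0226, adjusted p = 0.376) at 14 months and -0.43 (adjusted p = 0.823) at 15 months, both from edgeR, and the difference between the ages was not called (unadjusted p = 0.0643, adjusted p = 0.678).

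**Figure D1:**
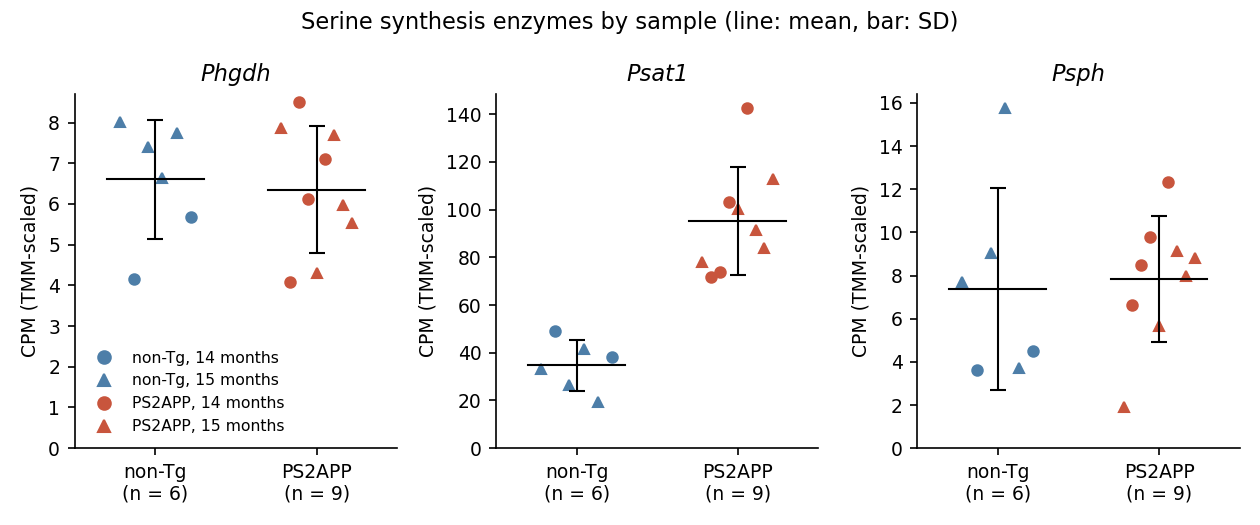
Level of the 3 serine synthesis enzymes in CPM (vertical axes start at 0) in each of 6 non-Tg (blue) and 9 PS2APP (red) samples, circles for 14 and triangles for 15 months, with the mean as a line and the SD as a bar. Psat1 is at 19.4 to 49.0 CPM in non-Tg and 71.8 to 143 in PS2APP, while the groups of Phgdh and Psph overlap.

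Per gene length, in the deposited RPKM, Psat1 was the most abundant of the 3 enzymes in either group. Its level was 3.43 ± 1.06 RPKM in non-Tg and 9.39 ± 2.21 in PS2APP (SD, n = 6 and 9). Phgdh was at 0.942 and 0.904 RPKM and Psph at 1.08 and 1.15 RPKM in the same order. Over all 15 samples Psat1 (7.01 RPKM) stood among the 31 tested genes after Nars (19.1), Atf4 (14.7) and Cebpg (11.6), and Phgdh at 0.919 RPKM was among the lower ones.

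**Figure D2:**
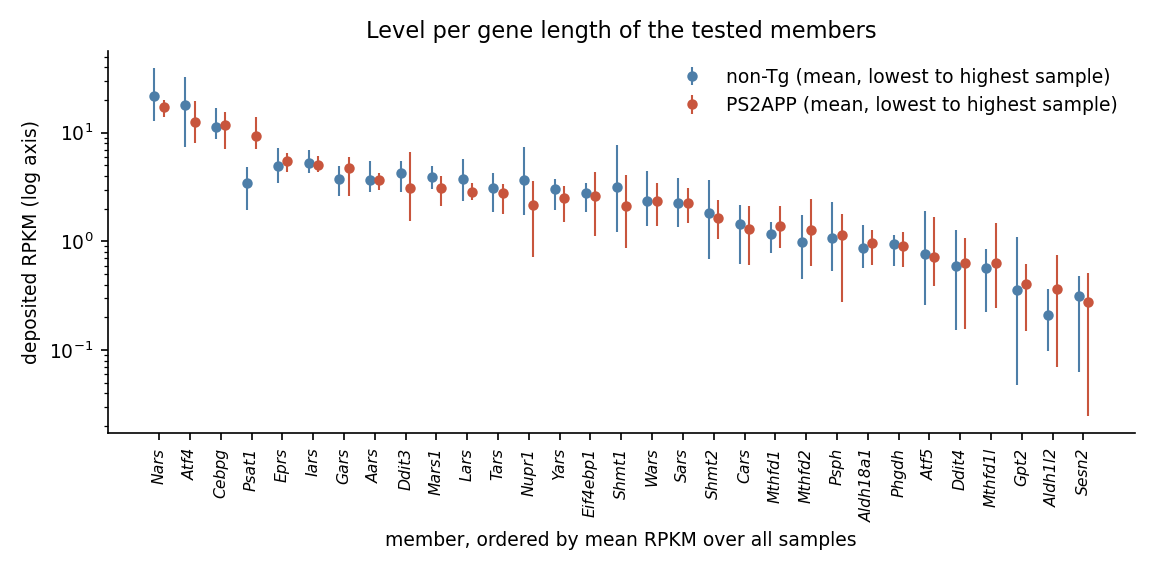
Deposited RPKM (log axis) of the 31 tested genes, ordered by their mean over all samples, with the group mean as a point and the lowest to highest sample as a bar for 6 non-Tg (blue) and 9 PS2APP (red) samples. The bars of Psat1 are apart, at 1.93 to 4.88 against 7.11 to 14.0 RPKM, and those of every other gene shown overlap.

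Folate one-carbon enzymes did not pass the test in any of 6 cases, with 4 positive and 2 negative estimates and a median log2 fold change of 0.20. Shmt1, the cytosolic serine hydroxymethyltransferase that takes carbon from serine, stood at 13.9, 16.6, 24.0, 31.3, 40.6 and 88.1 CPM in non-Tg, and at 9.998, 15.0, 15.6, 20.3, 21.5, 25.6, 31.0, 33.1 and 46.1 CPM in PS2APP. The highest value, 88.1 CPM, belonged to non-Tg sample 11. The log2 fold change of Shmt1 was -0.43 ± 0.37 (edgeR adjusted p = 0.711), and without that sample it was -0.03.

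Shmt2, its mitochondrial counterpart, stood at 6.01, 10.2, 12.8, 14.6, 18.8 and 31.9 CPM in non-Tg and at 9.07 to 21.1 CPM (median 12.9) in PS2APP. The PS2APP values lie inside the non-Tg range, and the log2 fold change was -0.14 ± 0.33 (edgeR adjusted p = 0.917). The mitochondrial enzymes Mthfd2 (0.35 ± 0.38) and Mthfd1l (0.16 ± 0.37) and the cytosolic Mthfd1 (0.24 ± 0.26) had positive log2 fold changes within their errors. Without PS2APP sample 1 Mthfd2 was at 0.09 and Mthfd1l turned to -0.21, and without non-Tg sample 2 Mthfd1l was at -0.01 and Shmt2 at 0.18.

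Aldh1l2, the mitochondrial formyltetrahydrofolate dehydrogenase, had the highest estimate after Psat1 and was singled out after its values were seen. Its non-Tg samples stood at 2.62 to 9.74 CPM (median 5.25) and its PS2APP samples at 1.84 to 19.9 (median 9.71). The groups overlapped, and 7 of 9 PS2APP samples lay above the non-Tg median. The log2 fold change was 0.82 ± 0.45 (edgeR adjusted p = 0.492) with an interval of -0.11 to 1.75, so a rise as large as that of Psat1 is within its error. Without the 3 libraries low in Xist it was 0.27. Over the 16 alternatives it ran from 0.17 to 1.53, and over the fits with a sample omitted from 0.56 to 1.06, always positive. The alternatives include a fit on log2(RPKM + 1), a scale on which log2 differences of genes at low RPKM are smaller. Aldh1l2 had means of 0.209 RPKM in non-Tg and 0.368 in PS2APP.

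Of the 6 enzymes of other amino acids only 2 had enough reads. Gpt2, a mitochondrial alanine aminotransferase, stood at 1.14, 1.24, 3.39, 6.51, 12.1 and 26.0 CPM in non-Tg and at 3.60 to 14.9 CPM (median 10.2) in PS2APP. Its non-Tg samples spread more widely than its PS2APP samples, and the log2 fold change was 0.50 ± 0.44 (edgeR adjusted p = 0.732). The Gpt2 estimate was 0.25 without non-Tg sample 2 and 0.92 without non-Tg sample 5, and it was -0.62 at 14 months alone and 1.34 at 15 months alone. Aldh18a1, which makes the precursor of proline, stood at 7.53, 8.32, 9.97, 10.8, 13.3 and 18.8 CPM in non-Tg and at 7.98 to 16.8 CPM (median 13.5) in PS2APP. The groups overlapped, and the log2 fold change was 0.18 ± 0.28 (edgeR adjusted p = 0.868).

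The other 4 of these enzymes were below the count filter. Asns, asparagine synthetase, had 42 reads in the 6 non-Tg samples and 121 in the 9 PS2APP samples, of which 69 lay in PS2APP sample 1 (14.7 CPM). The other 14 samples were at 0 to 3.14 CPM. Cbs and Pycr1 had 72 and 48 reads in non-Tg and 55 and 64 in PS2APP. Cth had 0 reads in non-Tg, which allows a level of up to 0.0821 CPM (3 reads over the group), and 2 reads in PS2APP. These limits cover counting error only.

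Atf4 itself was not called, and its estimate was negative. It stood at 47.7, 76.4, 98.4, 104, 159.9 and 212 CPM in non-Tg, and at 52.0, 55.6, 65.0, 65.6, 75.5, 80.1, 105, 106 and 128 CPM in PS2APP. The PS2APP samples lie inside the non-Tg range, and the 2 highest samples in each group are those high in immediate early genes (non-Tg 9 and 13, PS2APP 1 and 4). The means were 116 ± 59.8 and 81.4 ± 26.0 CPM (SD, n = 6 and 9), which is -0.51 ± 0.27 in log2 (edgeR adjusted p = 0.472). Without those 4 libraries it was -0.12 ± 0.24 (adjusted p = 0.873), and with the immediate early score as a covariate -0.20 ± 0.20 (0.763). ATF4 is controlled largely at translation, which RNA levels do not measure.

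Cebpg, a C/EBP protein that pairs with ATF4, stood at 155, 159, 173, 191, 218 and 298 CPM in non-Tg and at 126 to 272 CPM (median 232) in PS2APP. Its log2 fold change was 0.05 ± 0.17 (edgeR adjusted p = 0.956), with an interval of -0.31 to 0.41 that lies below a 2-fold rise. Of the 8 tested genes around ATF4 3 were positive and 5 negative, with a median of -0.13 and 0 called. Ddit3, the pro-apoptotic factor CHOP, was at -0.46 ± 0.27, and Nupr1, a stress-induced chromatin protein, at -0.70 ± 0.46, both with adjusted p over 0.05 (0.531 and 0.600, edgeR) and named after their values were seen. Ddit3 was at -0.23 without non-Tg sample 13. Nupr1 was at -0.43 without non-Tg sample 2, and at 0.16 at 14 months alone. Ddit3 and Mars1 overlap each other on chromosome 10. Ddit4 and Sesn2, inhibitors of mTORC1 signalling, Atf5 and the translation repressor Eif4ebp1 had log2 fold changes between -0.18 and 0.09.

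Chac1, Trib3 and Stc2, known targets of ATF4, had next to no reads. Chac1, a glutathione-degrading enzyme, had 17 reads in non-Tg and 19 in PS2APP, 12 of the latter in sample 1 (2.55 CPM). The other 14 samples were at 0 to 0.924 CPM. Trib3, a pseudokinase, had 3 reads in non-Tg and 6 in PS2APP, and Stc2, a secreted glycoprotein, had 0 reads in all 15 samples, which allows up to 0.0353 CPM (3 reads over all samples). PS2APP sample 1, which held most reads of Asns and Chac1 in its group, also had the highest Ddit3 (44.9 CPM) and Mthfd2 (21.5 CPM), and its Psat1 (77.9 CPM) was among the lower PS2APP values. It was 1 of the 4 libraries high in immediate early genes, and the part of that in these values was not tested.

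**Figure D3:**
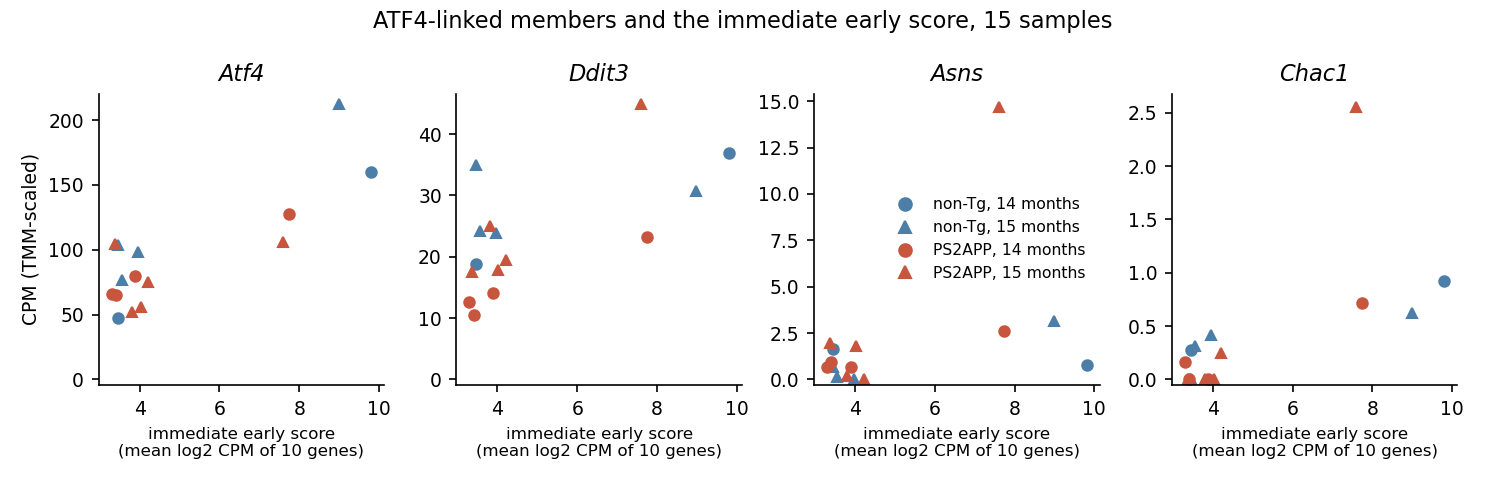
CPM of Atf4, Ddit3, Asns and Chac1 (vertical axes) against the mean log2 CPM of 10 immediate early genes (horizontal axes) in 15 samples, blue for non-Tg and red for PS2APP, circles for 14 and triangles for 15 months. The 4 libraries at scores of 7.60 to 9.81 include the highest Atf4 samples (106 to 212 CPM), and PS2APP sample 1 alone carries the top Asns (14.7 CPM) and Chac1 (2.55 CPM) values.

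The 12 aminoacyl-tRNA synthetases, which charge tRNAs with amino acids, showed 0 calls, with 3 positive and 9 negative estimates and a median log2 fold change of -0.09. Nars, the asparaginyl enzyme, stood at 125, 133, 148, 238, 261 and 390.0 CPM in non-Tg and at 139 to 199 CPM (median 179.7) in PS2APP. The PS2APP samples were the tighter group, inside the non-Tg range, and the log2 fold change was -0.33 ± 0.21 (edgeR adjusted p = 0.583), or -0.07 without non-Tg sample 11.

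Eprs, which charges tRNAs with glutamate and proline, stood at 63.5, 84.3, 85.1, 89.6, 93.7 and 135 CPM in non-Tg and at 81.2 to 120.5 CPM (median 99.2) in PS2APP. Its log2 fold change was 0.12 ± 0.15 (edgeR adjusted p = 0.831). The 12 estimates ran from -0.40 ± 0.19 for Lars to 0.33 ± 0.19 for Gars, and all 12 intervals lay below a 2-fold rise. Tars and Gars, whose promoter sites are shown above, were at -0.20 ± 0.21 and 0.33 ± 0.19. Aars, whose match is not printed, was at 0.04 ± 0.17, with means of 61.2 CPM in non-Tg and 62.2 in PS2APP.

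**Figure D4:**
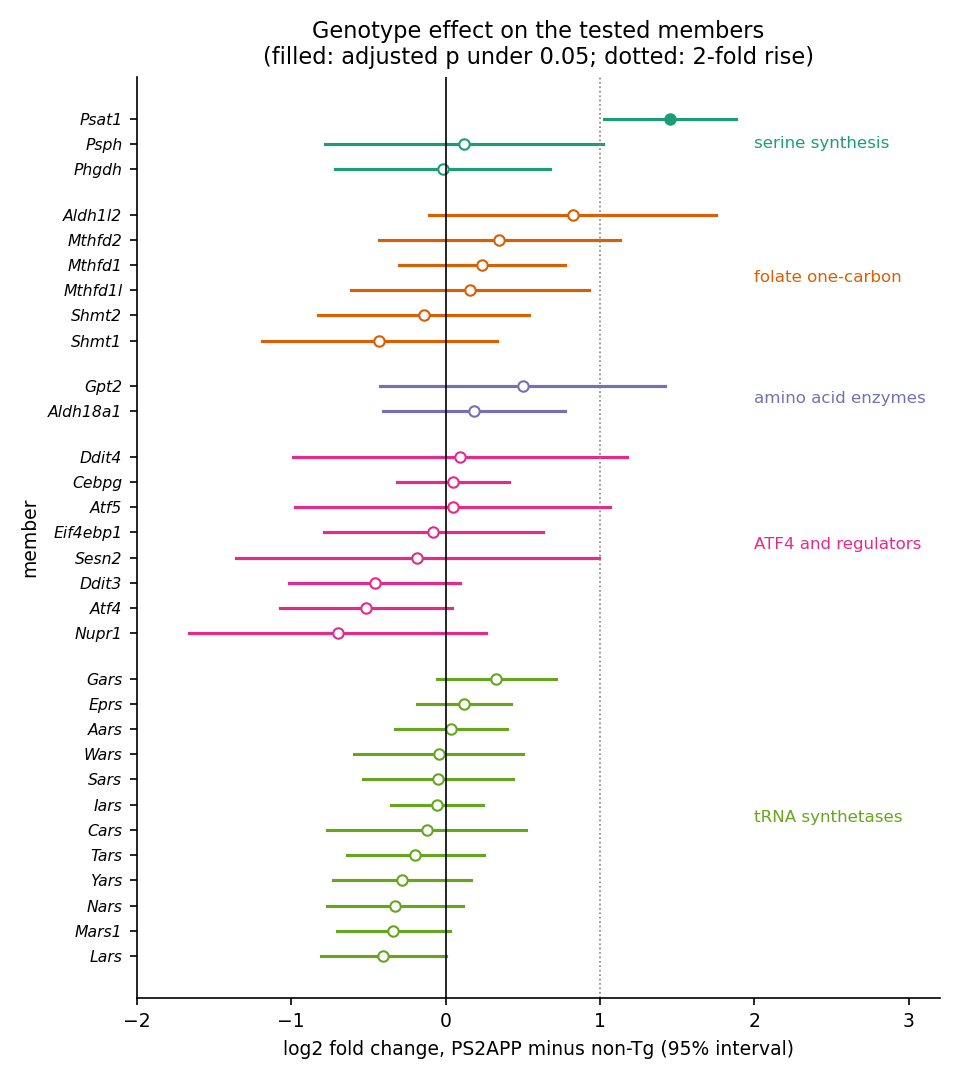
Log2 fold change (PS2APP minus non-Tg, horizontal axis) with its 95% interval for each of the 31 tested genes, grouped and coloured by role, with the filled point marking an adjusted p under 0.05 and the dotted line a 2-fold rise. Psat1 at 1.45 is the 1 filled point, and 29 of the other 30 intervals end below that estimate. The share over all genes was not computed.

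How large a rise these data still allow differed between the genes. For 29 of the 30 other genes the upper end of the 95% interval lay below the estimate of Psat1, Aldh1l2 being the exception, and for 25 it lay below the whole interval of Psat1 (1.02 to 1.88). A 2-fold rise was outside the interval for 24 genes and inside it for 6, namely Psph, Aldh1l2, Mthfd2, Gpt2, Ddit4 and Atf5. These intervals are for single genes and are not adjusted for their number. In the wider list described below, 67 of 70 tested genes ended below the Psat1 estimate and 56 excluded a 2-fold rise. The share over all genes was not computed, so these counts do not set the 30 apart. Psat1 was named because it was known to be high, so its estimate is not an independent yardstick. Across the 15 fits with a sample omitted and the 16 other alternatives none of the 30 was called.

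Effects that differ between the ages were called for 0 of 13994 genes (0%), with 1038 genes at an unadjusted p under 0.05 (edgeR interaction term). DESeq2 called 6 genes and edgeR without a count filter 94. Of the set Gpt2 (2.01 ± 0.79, unadjusted p = 0.0184, adjusted p = 0.658) and Atf5 (-2.07 ± 0.92, unadjusted p = 0.0358, adjusted p = 0.666) had an unadjusted p under 0.05 in that edgeR test. For Gpt2 the difference in mean log2 CPM was -0.57 at 14 months and 1.49 at 15 months, and for Atf5 it was 1.14 and -0.43, with 2 non-Tg samples at 14 months.

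Within the 9 PS2APP samples, where genotype is fixed, Psat1 was compared with each of the 30 other tested genes and with 3 scores, 33 relations in all, on log2 CPM. None passed the adjustment (exact two-sided permutation tests, smallest adjusted p = 0.218 for Pearson and 0.101 for Spearman). Of the 30 genes 15 had a positive and 15 a negative r, from -0.681 to 0.512 with a median of 0.00158. For Phgdh r was -0.00349 and rho -0.10 (exact permutation p = 0.993 and 0.810, adjusted p = 0.993 and 0.970). For Psph r was 0.51 and rho 0.65 (exact permutation p = 0.157 and 0.0666, adjusted p = 0.864 and 0.566). Without PS2APP samples 3 and 8, the farthest from the median of Psat1, r was -0.72 for Phgdh and 0.41 for Psph over 7 samples, so the value near 0 for Phgdh rests on those samples.

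Atf4 had the lowest r, -0.68, with rho -0.78 (exact permutation p = 0.0434 and 0.0172, adjusted p = 0.717 and 0.284), and without PS2APP samples 3 and 8 r was -0.88. Without PS2APP samples 1 and 4, which are high in immediate early genes, r was -0.51 over 7 samples (exact permutation p = 0.233). The immediate early score itself had an r of -0.59 with Psat1 (exact permutation p = 0.107, adjusted p = 0.864). The astrocyte score had an r of 0.23 and a rho of 0.30 (exact permutation p = 0.549 and 0.437, adjusted p = 0.953 and 0.747). Without samples 3 and 8 these r were -0.82 and 0.24.

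The score of 12 plaque-associated genes such as Cst7, Gpnmb and Itgax, all 12 of which rose in PS2APP, had the highest r with Psat1. Over the 9 PS2APP samples r was 0.82 and rho 0.88 (exact permutation p = 0.00662 and 0.00308, adjusted p = 0.218 and 0.101). Without samples 3 and 8 r was 0.85, and without samples 1 and 4 it was 0.77 over 7 samples (exact permutation p = 0.0425). Neither relation passed the adjustment over 33, and the ages hold 4 and 5 PS2APP samples, too few for a value within each.

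**Figure D5:**
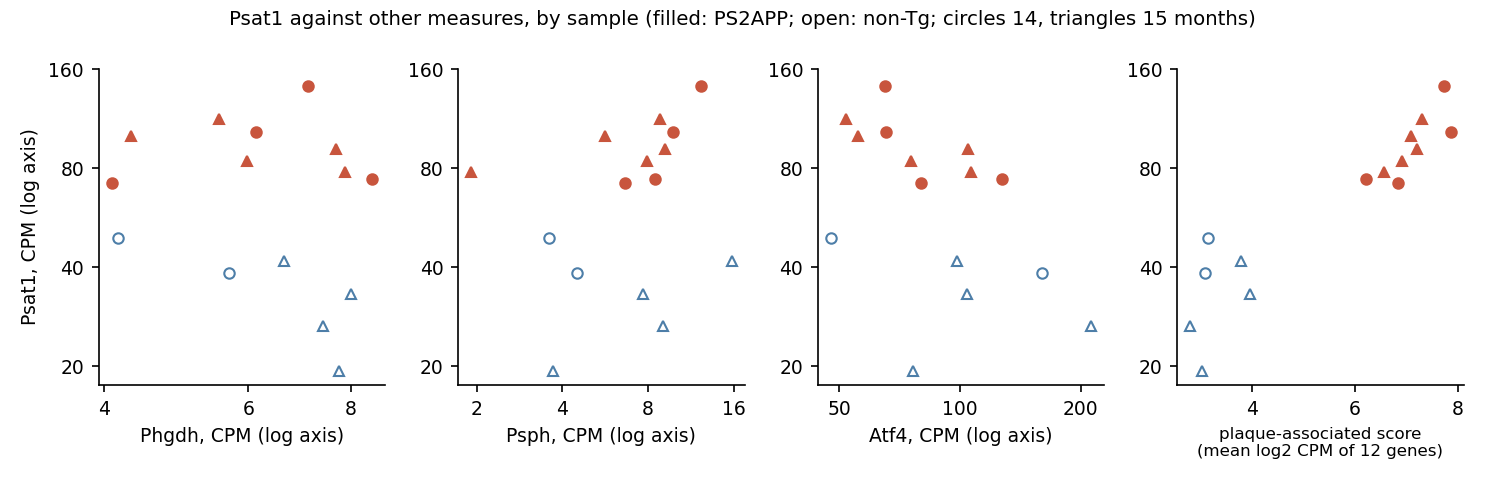
Psat1 in CPM (log axis) against Phgdh, Psph and Atf4 in CPM (log axes) and against the mean log2 CPM of 12 plaque-associated genes, with filled points for 9 PS2APP and open points for 6 non-Tg samples, circles for 14 and triangles for 15 months. Over the filled points r is -0.00349 for Phgdh, 0.51 for Psph, -0.68 for Atf4 and 0.82 for the plaque-associated score, and none passes the adjustment.

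A wider list of 76 other genes of these pathways was read in the same way, and 0 of the 70 tested were called, with 33 positive and 37 negative estimates and a median log2 fold change of -0.01. At an unadjusted p under 0.05 there were 9, and 1635 among all 13994 genes. Ahcy, Gldc, Mthfd2l, Slc7a3, Fgf21 and Gdf15 were below the count filter.

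Among the 7 genes of eIF2 kinases and phosphatase Eif2ak2, the RNA-activated kinase PKR, which interferon is known to induce, came closest to the threshold. It stood at 38.5 to 79.8 CPM (mean 57.0 ± 14.9 SD, n = 6) in non-Tg and at 67.6 to 140.0 (96.9 ± 23.6, n = 9) in PS2APP, above the non-Tg median in 9 of 9 samples. Its log2 fold change was 0.77 ± 0.20 (edgeR adjusted p = 0.0592). It was called with DESeq2 (0.0101), with no count filter (0.00684), with the immediate early score as a covariate (0.0173) and without PS2APP sample 7 (0.0384) or non-Tg sample 9 (0.0309). Ppp1r15a, which directs the dephosphorylation of eIF2 and is itself an ATF4 target, was at -1.21 ± 0.72 (adjusted p = 0.543). Its 4 highest samples were the libraries high in immediate early genes, non-Tg 9 and 13 at 63.1 and 62.2 CPM and PS2APP 1 and 4 at 36.6 and 17.8. The medians of Ppp1r15a were 4.55 CPM in non-Tg and 4.41 in PS2APP, and the part of those libraries in its estimate was not tested.

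Further ATF4 targets went both ways without a call. Vegfa, a vascular growth factor, was at 1.95 ± 0.63 (edgeR adjusted p = 0.174), from 1.43 ± 0.77 to 5.44 ± 4.43 CPM, and Ero1a, an oxidoreductase of the endoplasmic reticulum, was at 0.64 ± 0.21 (0.181). Herpud1, a degradation factor of the same compartment, was at -0.58 ± 0.22 (0.252). Of 10 genes of endoplasmic reticulum stress 4 were positive and 6 negative, with Canx (calnexin) at 0.39 ± 0.19 (0.416) and Sel1l at 0.22 ± 0.12 (0.510) having the smallest unadjusted p.

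Among 13 tested genes of folate, methionine and glycine metabolism Tyms, thymidylate synthase, which uses folate carbon for DNA precursors, was at 0.88 ± 0.28 (edgeR adjusted p = 0.171), from 8.31 ± 2.76 to 15.3 ± 3.53 CPM. DESeq2 called Tyms (0.0492) and Vegfa (0.0467). Mat2a, which makes S-adenosylmethionine, was at -0.51 ± 0.22 (edgeR adjusted p = 0.360). The 8 tested amino acid transporters were led by Slc3a2 (-0.26 ± 0.15) and Slc1a4, a serine carrier (-0.61 ± 0.36). Of the other synthetases Qars (0.48 ± 0.21) and Kars (-0.34 ± 0.23) among 8 cytosolic and Fars2 (-0.50 ± 0.32) and Ears2 (0.43 ± 0.30) among 17 mitochondrial enzymes had the smallest unadjusted p.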

How the data were processed

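RNA-seq of 15 samples of sorted cortical microglia was used. Per the submitters' processing notes, the authors used GSNAP and the GRCm38 build. For versions, annotation, library kit and strandedness: not given in the sources used here. The deposited count is the whole number of uniquely aligned reads per gene, and the deposited RPKM is scaled by gene length and a size factor, both per the file headers. RefSeq names matched 31049 of 36528 gene IDs, with 97.2% to 98.2% of each sample's reads.

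Counts were tested in R 4.3.3 with edgeR 4.0.16: filterByExpr, TMM, and a quasi-likelihood fit of age and genotype to all samples. A gene was called at an adjusted p under 0.05 (Benjamini-Hochberg over 13994 genes), and no other adjustment was made. Levels are CPM of TMM-scaled libraries, and log2 CPM uses a prior count of 2. The fit was tested on simulated data. Standard errors derive from the F statistic, and intervals are 95%. Within groups no pair of samples agreed within sampling noise (chi-square per degree of freedom 9.98 to 67.5 over 51 pairs).

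Genes named with values are the serine enzymes, members with an unadjusted p under 0.05, the 2 of each role with the highest RPKM, and the 2 with the smallest p (and any called) of each further list. Some items this rule takes are not reported here. Others were named after their values were seen. Members and lists were chosen with earlier results of these data known. Alternatives were other scalings, filters, DESeq2 1.42.0, limma 3.58.1 (voom, and trend on log2(RPKM + 1)), single ages, marker scores as covariates, libraries left out in sets, and each sample left out in turn. The relations without PS2APP samples 1 and 4 were added after seeing the data.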

Additional observations from a re-analysis of the deposited data

Results flagged for a closer look

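The 62 groups of samples (31 tested genes in each genotype) were screened for a single sample far from the others of its group. Chance gives about 1 in 20, and 4 stood out, which is near that rate. Psph stood at 1.91 CPM in PS2APP sample 1, below the 5.67 to 12.3 CPM of the other 8 PS2APP samples. Gpt2 stood at 3.60 CPM in PS2APP sample 10, against 7.78 to 14.9 in the others. Atf5 stood at 12.5 CPM in PS2APP sample 4, against 2.89 to 6.14. Sesn2 stood at 0.249 CPM in PS2APP sample 14, against 1.49 to 5.04. None of these genes was called with or without the sample.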

How the results depend on the processing

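The count of genes called, 165 with all samples, was 648 with no count filter, 388 with DESeq2, 81 without the 3 libraries low in Xist, 65 at 15 months alone, 50 at 14 months alone and 19 with the neuron score as a covariate. Leaving out each sample gave 118 to 188. Fewer samples entered the age and library fits; otherwise the cause was not tested. The count of called members was 0 at 14 months (Psat1 1.20) and with the neuron score (Psat1 1.05), and 1 in the other alternatives, in each case Psat1, whose log2 fold change was 1.33 to 1.55 over the fits without a sample. The median over the members was 0.17 at 14 months, -0.17 at 15 months and -0.10 to 0.02 over the fits without a sample. The interaction test called 94 genes with no count filter, 6 with DESeq2, and 0 to 3 without a sample (3 without non-Tg replicate 5, 1 without non-Tg replicate 11). No relation with Psat1 passed the adjustment under any alternative run. Of the values of single named genes under alternatives 1202 kept their side of the threshold and 7 gained a call (Eif2ak2 5 times, Tyms and Vegfa once each). No paired analysis was made because the labels give no pairing, and the replicate numbers are running sample numbers. Too few reads left 7 members below the count filter and so without a test in the main fit. The fit with no count filter tested 37 members and called Psat1 alone.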
